A study of Mus musculus with 15 samples.

Results

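The 6 genes described here encode receptors and ligands of the neurotrophin family. Ntrk2 encodes TRKB, Ntrk3 encodes TRKC, Ngfr encodes the p75 neurotrophin receptor and Sort1 encodes sortilin. Bdnf and Ntf3 encode the ligands brain-derived neurotrophic factor and neurotrophin-3. They were chosen by symbol, as the receptors that neurotrophin-4 (NT-4) or a related ligand could use in an oocyte and the ligands that could share them, and all 6 were found among the 55401 gene identifiers of the count tables. The question was whether they were detected in oocytes, in which groups and at which counts.

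The study grew mouse follicles in vitro with and without NT-4 protein in the medium and sequenced their oocytes. Each of the 15 libraries was a pool of 6 oocytes in the germinal vesicle stage from Kunming mice, amplified with SMART-Seq2, and each of the 5 groups held 3 libraries from separate experiments. IVV oocytes came from antral follicles that had grown in vivo. IVG and IVG-NT oocytes came from preantral follicles dissected from the ovaries of mice 12 to 14 days old and grown for 10 days without or with NT-4, and another pair of groups was taken on day 6 of the same cultures. Every cultured group, with NT-4 or not, had FSH, insulin and transferrin in the medium. Whole follicles were exposed to NT-4, and only the oocyte was read after the cumulus cells had been removed. The NT-4 content of the sequenced groups is not on their labels, and the series gives its mice that single age range, with no separate age for IVV.

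Neurotrophins are secreted as longer precursors that proteases cut into the mature factors. Mature NT-4 and BDNF bind TRKB, neurotrophin-3 binds mainly TRKC, and all of them can bind p75, whereas sortilin carries and binds the precursors, often together with p75. In the ovary the family is known from the growth of follicles and from oocytes, and TRKB occurs in a form with a kinase domain and in truncated forms that lack it.

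The counts were taken per gene, so they did not separate these forms. The stretches below show where the coding sequences of a kinase-bearing and a truncated transcript part, in GENCODE vM21 on GRCm38, read 5′ to 3′ on the coding strand. The last 20 shared coding bases are in lower case and the first coding bases of each transcript's own end are in capitals.
Ntrk2-201, kinase-bearing TRKB, capitals at chr13:58985802-58985861 on the plus strand: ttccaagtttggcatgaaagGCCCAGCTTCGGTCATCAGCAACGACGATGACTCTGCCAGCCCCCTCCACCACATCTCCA
Ntrk2-202, truncated TRKB, capitals at chr13:58932023-58932060 on the plus strand: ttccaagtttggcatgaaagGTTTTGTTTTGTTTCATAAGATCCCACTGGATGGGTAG
Ntrk3-201, kinase-bearing TRKC, capitals at chr7:78260355-78260414 on the minus strand: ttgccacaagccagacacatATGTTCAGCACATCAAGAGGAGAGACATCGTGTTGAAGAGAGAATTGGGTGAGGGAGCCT
Ntrk3-202, truncated TRKC, capitals at chr7:78304367-78304426 on the minus strand: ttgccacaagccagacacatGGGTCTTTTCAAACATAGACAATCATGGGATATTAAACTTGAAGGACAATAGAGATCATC
The pair of Ntrk2 transcripts shared 1393 coding bases, after which the kinase-bearing one had 1073 of its own and the truncated one 38. The pair of Ntrk3 transcripts shared 1585 coding bases before ends of 893 and 254. A count for Ntrk2 or Ntrk3 may come from either form.

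Libraries held 5954262 to 55593251 counts. They were of 2 kinds by the share of counts on an annotated ribosomal RNA gene, CT010467.1, which took 0.187% to 0.714% in 6 rRNA-poor libraries and 12.5% to 37.9% in 9 rRNA-rich ones. IVV replicate 3 and replicates 1 and 2 of every cultured group were rRNA-rich, so every group held both kinds. Replicates 1 and 2 of IVG-NT day 6 were shallow, with 5954262 and 7125348 counts, and the Spearman correlation between libraries of that group was 0.507 to 0.537. These shallow libraries and IVV replicate 3 stood apart, and results that rest on them are given with and without them. The summed level of 14 oocyte markers was 14600 to 29900 CPM in every library, CPM being counts scaled to a common library total. The summed level of 17 granulosa cell markers was 301 to 1470 CPM, with Amh at 0 in all libraries of IVG day 10, IVG-NT day 10 and IVG-NT day 6. It was 3.24 to 209 CPM for 14 theca and stroma markers, 4.52 to 70.1 for 4 endothelial, 0 to 49.2 for 5 macrophage and 91.9 to 793 for 6 neuronal and glial markers. The part of these cells in the values below was not tested. In pools of this kind, fewer cells of a type and less RNA per cell cannot be told apart.

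A gene was counted as detected in a library at 10 or more counts. Sort1 and Ntrk3 were detected in 15 of 15 libraries and Ntrk2 in 14, whereas Ntf3 was detected in 7, Ngfr in 5 and Bdnf in 4. Of the 90 pairs of gene and library, 60 reached 10 counts and 25 were at 0. Only Sort1 and Ntrk3 were detected in every library of all 5 groups, and Ntrk2 missed this by 1 library of IVG-NT day 6. Over all 21009 genes that passed the filter on low counts, which these 6 also passed, 26.4% reached 10 counts in all 15 libraries. A count of 0 allows up to 3 counts, which were worth 0.0441 to 0.542 CPM depending on the library, for counting error only.

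**Figure D1:**
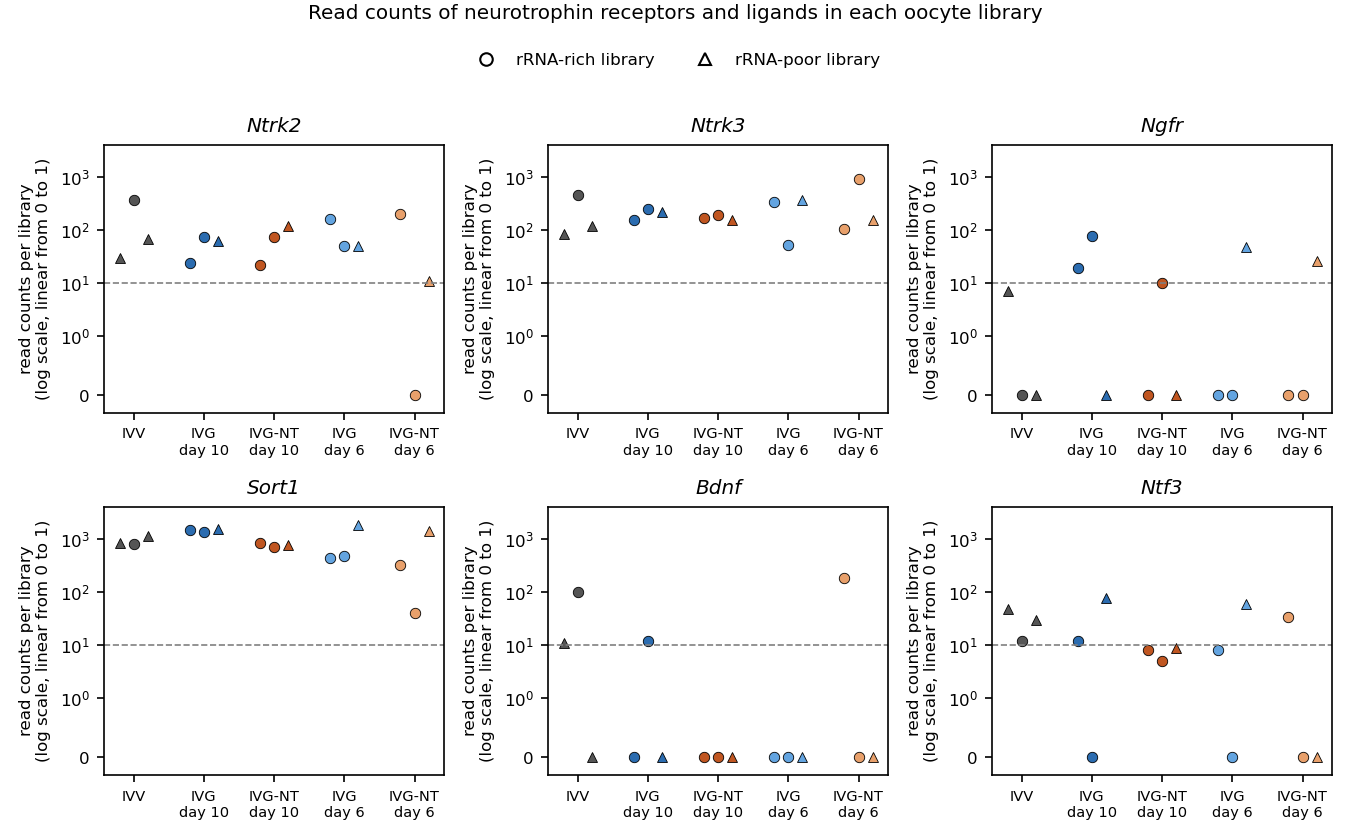
Read counts of the 6 genes in each library on a log scale that is linear from 0 to 1, by group, with circles for rRNA-rich and triangles for rRNA-poor libraries and a dashed line at 10 counts. Sort1 and Ntrk3 lie above the line in all 15 libraries, and Bdnf lies at 0 in 11.

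Ntrk2 (ENSMUSG00000055254, chromosome 13, 58806569 to 59133970, plus strand) encodes the receptor through which NT-4 signals. In IVV oocytes it had 30, 371 and 67 counts in replicates 2, 3 and 4. On day 10 it had 24, 72 and 63 counts in IVG and 22, 75 and 117 in IVG-NT. On day 6 it had 159, 49 and 50 counts in IVG and 196, 0 and 11 in IVG-NT. Ntrk2 was therefore low but present in every group, and a single library stood far above the others in IVV and in IVG-NT day 6. The values of all 5 groups overlapped.

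Scaled to library size, that split was sharper. IVV replicate 3 had 22.5 normalized CPM of Ntrk2 against 0.628 and 1.36 in the other two IVV libraries, and IVG-NT day 6 replicate 1 had 35.4 against 0 and 0.179. These 2 libraries were among the 3 in which the most genes had their highest value, the first holding the maximum of 9.81% and the second that of 14.2% of all genes tested. On day 10 Ntrk2 averaged 1.14 ± 0.48 CPM without NT-4 and 1.97 ± 1.15 with it (SD, n = 3). The difference between IVG and IVV was a log2 fold change of -2.83 (SE 1.95, edgeR quasi-likelihood test, Benjamini-Hochberg adjusted p = 1), and it was 0.19 without IVV replicate 3. Within the rRNA-poor libraries alone, Ntrk2 was 0.11 higher on the log2(CPM + 0.5) scale in IVG, with replicate 3 only, than in IVV. In the rRNA-rich ones the difference was -3.80, and there IVV had only the same replicate 3. With NT-4 on day 10 the log2 fold change against IVG was 0.79 (SE 1.83, adjusted p = 1). On day 6 it was 1.98 (SE 1.89, adjusted p = 0.725), and it became -4.66 without IVG-NT replicate 1. By the limits of the study for a call, more than 1 log2 unit with an unadjusted P-value limit of 0.05, Ntrk2 was not called in the first of these fits and was called lower with NT-4 in the second.

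Ntrk3 (ENSMUSG00000059146, chromosome 7, 78175959 to 78738012, minus strand) encodes the receptor that neurotrophin-3 prefers. In IVV oocytes it had 84, 452 and 121 counts in replicates 2, 3 and 4. On day 10 it had 156, 246 and 219 counts in IVG and 165, 189 and 153 in IVG-NT. On day 6 it had 341, 51 and 368 counts in IVG and 102, 902 and 156 in IVG-NT. Ntrk3 was steady on day 10, where the 6 libraries lay within a narrow range with NT-4 and without it. It was uneven in IVV and on day 6.

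On day 10 Ntrk3 averaged 4.6 ± 0.884 CPM without NT-4 and 4.94 ± 1.41 with it (SD, n = 3), a log2 fold change of 0.10 (SE 1.28, edgeR adjusted p = 1, 95% interval -2.41 to 2.62). IVV replicate 3 had 27.4 CPM against 1.76 and 2.46 in the other IVV libraries. Against IVV, the log2 fold change was -1.19 (SE 1.30) in IVG, and 1.13 without that library. On day 6 the levels were 12.3, 2.63 and 5.41 CPM in IVG and 18.4, 157 and 2.54 in IVG-NT. The mean of IVG-NT thus rested on replicate 2, and the groups overlapped.

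Ngfr (ENSMUSG00000000120, chromosome 11, 95568818 to 95587735, minus strand) encodes p75, which binds all neurotrophins and can act with or without a TRK receptor. It had 7 counts in IVV replicate 2 and 0 in the other IVV libraries. On day 10 it had 19, 77 and 0 counts in IVG and 0, 10 and 0 in IVG-NT. On day 6 its only counts were 48 in replicate 3 of IVG and 26 in replicate 3 of IVG-NT. Ngfr was at 0 in 9 of 15 libraries, the groups overlapped in every comparison, and no IVV library reached 10 counts. The log2 fold change in IVG against IVV was 3.80 (SE 2.87, edgeR adjusted p = 1).

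Sort1 (ENSMUSG00000068747, chromosome 3, 108284082 to 108361511, plus strand) encodes sortilin, a sorting receptor that binds proneurotrophins. In IVV it had 849, 792 and 1122 counts in replicates 2, 3 and 4. On day 10 it had 1448, 1343 and 1568 counts in IVG and 838, 716 and 766 in IVG-NT. On day 6 it had 444, 471 and 1859 counts in IVG and 323, 41 and 1432 in IVG-NT. Sort1 had by far the most counts of the 6 genes, and the IVG-NT libraries of day 10 all lay below those of IVG. Its exons share 338 bases with Gm12523 on the other strand, which had 0 counts in all libraries; without strand, reads of a gene and its antisense partner cannot be told apart.

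On day 10 the levels of Sort1 were 40.7, 30.5 and 27.6 CPM in IVG and 24.7, 24.2 and 17.9 in IVG-NT, so that the lowest IVG library was above the highest IVG-NT library. These gave 32.9 ± 6.86 against 22.3 ± 3.78 CPM (SD, n = 3). The exact permutation test, two-sided, gave p = 0.1, the smallest that 3 against 3 libraries allow, and 1.93% of all genes tested lay below IVG in that way. The difference was -0.53 on the log2(CPM + 0.5) scale within the rRNA-rich libraries (replicates 1 and 2 of each group). It was -0.61 within the rRNA-poor ones (replicate 3 of each). As the groups did not overlap, the sign of both was fixed, so they add no separate evidence. The fitted log2 fold change was -0.56 (SE 0.84, edgeR adjusted p = 1), which is smaller than its error, and it was -0.67 to -0.40 with each library left out in turn. The summed granulosa marker level was 640 to 1390 CPM in the IVG and 598 to 1340 in the IVG-NT libraries, so those groups overlapped in it. On day 10 IVG also lay above IVG day 6, whose levels were 16, 24.2 and 27.3 CPM, with 4.47% of all genes above in that manner (log2 fold change 0.55, SE 0.84, edgeR adjusted p = 1). The nearest values of those groups, 27.6 and 27.3 CPM, almost touched. Against IVV, whose levels were 17.8, 48 and 22.8 CPM, the log2 fold change of Sort1 was 0.16 (SE 0.84) in IVG and -0.41 (SE 0.84) in IVG-NT. The sign of the first turned under DESeq2 size factors, with a value of -0.02.

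**Figure D2:**
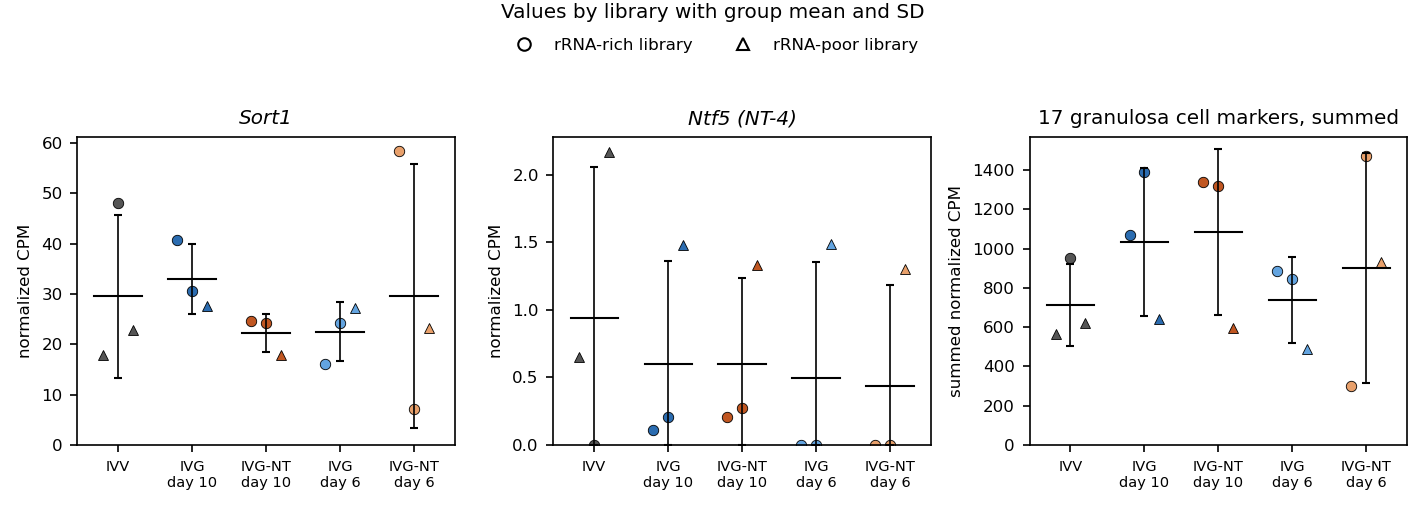
Normalized CPM of Sort1 and Ntf5 and the summed normalized CPM of 17 granulosa cell markers in each library, by group, with the group mean (bar) and SD (error bar, cut at 0). Sort1 in IVG-NT day 10 (17.9 to 24.7) lies below IVG day 10 (27.6 to 40.7), and Ntf5 is highest in the rRNA-poor library or libraries of every group.

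Among the ligands, Bdnf (ENSMUSG00000048482, chromosome 2, 109674700 to 109727007, plus strand) shares TRKB with NT-4. It had 11, 101 and 0 counts in IVV replicates 2, 3 and 4, 0, 12 and 0 in IVG day 10, and 180, 0 and 0 in IVG-NT day 6. It was at 0 in all 3 libraries of IVG-NT day 10 and of IVG day 6. Bdnf was thus seen in 4 libraries, and IVG-NT day 6 replicate 1 held 83.1% of its summed CPM. Its exons share 896 bases with Gm45346 on the other strand, which also had 0 counts.

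Ntf3 (ENSMUSG00000049107, chromosome 6, 126101412 to 126166910, minus strand) encodes the ligand of TRKC. It had 47, 12 and 30 counts in IVV replicates 2, 3 and 4. On day 10 it had 12, 0 and 77 counts in IVG and 8, 5 and 9 in IVG-NT. On day 6 it had 8, 0 and 59 counts in IVG and 34, 0 and 0 in IVG-NT. IVV was the only group in which every library reached 10 counts of Ntf3, and in IVG-NT day 10 none did. The level was 0.774 ± 0.192 CPM in IVV and 0.205 ± 0.0335 in IVG-NT day 10 (SD, n = 3), and these groups did not overlap (exact permutation p = 0.1, two-sided, the smallest possible). Of all genes tested, 7.04% lay below IVV in the same manner. On the log2(CPM + 0.5) scale the difference was -0.81 within the rRNA-rich libraries, where IVV had replicate 3 only. It was -0.87 within the rRNA-poor ones, where IVG-NT had replicate 3 only. As the groups did not overlap, the sign of both was fixed. The fitted log2 fold change was -1.90 (SE 2.30, edgeR adjusted p = 1). Between IVG-NT and IVG on day 10 the log2 fold change of Ntf3 was -1.45 (SE 2.26, edgeR adjusted p = 1), and 0.11 with replicate number as a block.

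Levels were compared between genes only per length, as FPKM, which divides a count by the exon length and by the library total. Sort1 had the highest mean FPKM of the 6 in every group, from 2.72 ± 0.0829 in IVG-NT day 10 to 4.5 ± 0.396 in IVG day 10 (SD, n = 3). It stood above 67.7% to 72.1% of 21897 protein-coding genes. Mean Ntrk2 was 0.0631 FPKM in IVG day 10, 0.1 in IVG-NT day 10, 0.147 in IVG day 6, 0.376 in IVV and 0.573 in IVG-NT day 6. Mean Ntrk3 was 0.15 in IVG-NT day 10, 0.16 in IVG day 10, 0.228 in IVG day 6, 0.315 in IVV and 1.62 in IVG-NT day 6. In that order no group stood apart from its neighbour beyond the spread of the libraries, for either gene. At 1 FPKM in every library as the limit, Sort1 was the only one of the 6 detected, and it was so in 4 of the 5 groups, missing it in IVG-NT day 6 with 0.76 FPKM in replicate 2. Mean Ntf3 ranged from 0.112 to 1.11 FPKM, mean Bdnf from 0 to 1.62 and mean Ngfr from 0.0158 to 0.218.

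**Figure D3:**
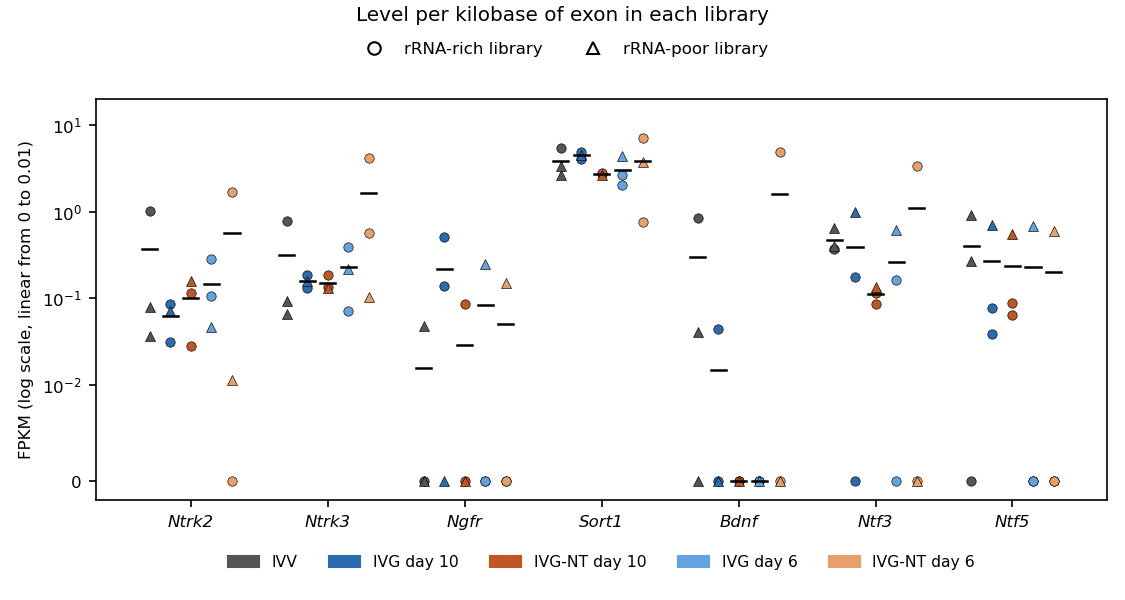
FPKM of the 6 genes and of Ntf5 in each library on a log scale that is linear from 0 to 0.01, coloured by group, with circles for rRNA-rich and triangles for rRNA-poor libraries and black bars for group means. Sort1 has the highest mean in each group (2.72 to 4.5), and the highest Ntrk2, Ntrk3, Bdnf and Ntf3 values belong to the shallow libraries of IVG-NT day 6.

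Of the 6 genes, 5 had their highest normalized level in a shallow library of IVG-NT day 6. Ntrk2, Sort1, Bdnf and Ntf3 peaked in replicate 1, which held the maximum of 14.2% of all genes tested, and Ntrk3 peaked in replicate 2, which held that of 12.6%. Ngfr peaked in IVG day 10 replicate 2. These shares of all genes were the largest of any library. The same libraries also had the highest summed level of the 6 neuronal and glial markers, 468 CPM in replicate 1 and 793 in replicate 2, against 91.9 to 247 in the other 13 libraries. This was not particular to these markers. Replicate 1 also had the highest macrophage sum (49.2 CPM) and replicate 2 the highest theca and stroma sum (209 CPM). By summed FPKM the neuronal and glial markers did not lead there, at 82.2 and 89.7 against 120 in IVG day 10 replicate 2. IVV replicate 3, where Ntrk2, Ntrk3 and Bdnf were highest among the IVV libraries, had 211 CPM of the neuronal and glial markers against 91.9 and 96.4 in the others. Their summed FPKM there was 53.9 against 47.4 and 49.1. In replicate 1, 5 of these 6 markers reached 10 counts, and in replicate 2, 3 did. Their part in the levels of the 6 genes was not tested. The granulosa markers were lowest in replicate 1 (301 CPM) and highest in replicate 2 (1470 CPM) of IVG-NT day 6, with 10 of 17 at 0 in each.

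The genes were then compared between groups in 1 fit of all libraries. The limits of the study were used for a call, more than 1 log2 unit of change in either direction with 0.05 for the P-value before adjustment, and the Benjamini-Hochberg adjusted p over all genes is given for each called gene. In IVG against IVV, 0 of 6 were called, where 2.76% of all genes were. These groups differ in culture, in the follicles taken and in the mix of library kinds, which cannot be told apart here. Without the limit on the size of change the count was also 0, and DESeq2 called 0 of the 5 for which it gave a P-value. In IVG-NT against IVV, 1 of 6 was called, beside 3.29% of all genes in either direction and 2.67% lower. That gene was Bdnf (edgeR adjusted p = 1), at 0 counts in IVG-NT and at 112 over IVV, of which 101 were in replicate 3. Against 3 counts over the group, Bdnf was at least 34.9-fold lower in IVG-NT. Such bounds, here and below, cover counting error in the pooled counts of a group and not the spread between its libraries. Without IVV replicate 3 Bdnf was no longer called, nor without any 1 of the IVG-NT libraries, and DESeq2 gave no P-value for Bdnf. Both comparisons share the IVV libraries.

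The effect of NT-4 itself was read within a day. On day 10, 0 of 6 were called in IVG-NT against IVG, where 1.24% of all genes were, the count was also 0 without the limit on size, and DESeq2 called 0 of 5. On day 6, 2 of 6 were called, both higher with NT-4, beside 11.6% of all genes in either direction and 6.74% higher. Ntrk3 had a log2 fold change of 3.13 (SE 1.39, edgeR adjusted p = 0.41), which was 0.66 and not called without IVG-NT replicate 2. It was not called without IVG replicate 2 or 3 either, and with both shallow libraries left out it was -1.34. Bdnf was at 0 in IVG day 6 and at 180 counts in 1 library of IVG-NT, at least 95.2-fold higher over the group (edgeR adjusted p = 0.386). Its other IVG-NT libraries were at 0, so that without replicate 1 no fold could be given, and it was not called without IVG replicate 3. By DESeq2, Ntrk3 alone of 5 was called (log2 fold change 3.62, SE 1.22, adjusted p = 0.0623). With replicate number as a block, 0 of 6 were called on day 6.

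From day 6 to day 10 of culture without NT-4, 0 of 6 were called, where 2.9% of all genes were, also without the limit on size, and 0 of 5 by DESeq2. The difference with NT-4 on day 10 minus that on day 6 was called for Bdnf, 1 of 6, beside 6.37% of all genes in either direction and 4.28% lower. This difference of differences was -1.19 for Ntrk2 (SE 2.59, edgeR adjusted p = 1), -3.03 for Ntrk3 (SE 1.86, adjusted p = 0.89) and -0.96 for Sort1 (SE 1.19, adjusted p = 1). In these edgeR comparisons 0 of all 21009 genes passed 0.05 after adjustment. On day 6 this rested on 1 library: without IVG-NT replicate 3, 2581 genes passed after adjustment and 6312 were called, in place of 0 and 2430. Of these calls 1883 were higher and 4429 lower with NT-4, and the median of all genes was -1.32. That fit left IVG-NT only its shallow rRNA-rich libraries, while IVG kept an rRNA-poor library of 55593251 counts. NT-4, depth and library kind cannot be told apart in it. By DESeq2, 68 genes passed in IVG against IVV, 90 in IVG-NT against IVV, 51 with NT-4 on day 10, 654 with NT-4 on day 6 and 109 between the days, none of them among the 6.

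Libraries that did not overlap were counted as well. None of the 6 genes lay apart in IVG against IVV, where 5.35% of all genes lay above and 6.53% below, or with NT-4 on day 6, where 1.01% lay above and 7.44% below. Ntf3 alone lay apart in IVG-NT against IVV (4.57% above, 7.04% below) and Sort1 alone with NT-4 on day 10 (1.66% above, 1.93% below). Sort1 was also the only one apart between day 10 and day 6 of IVG (4.47% above, 2.95% below).

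**Figure D4:**
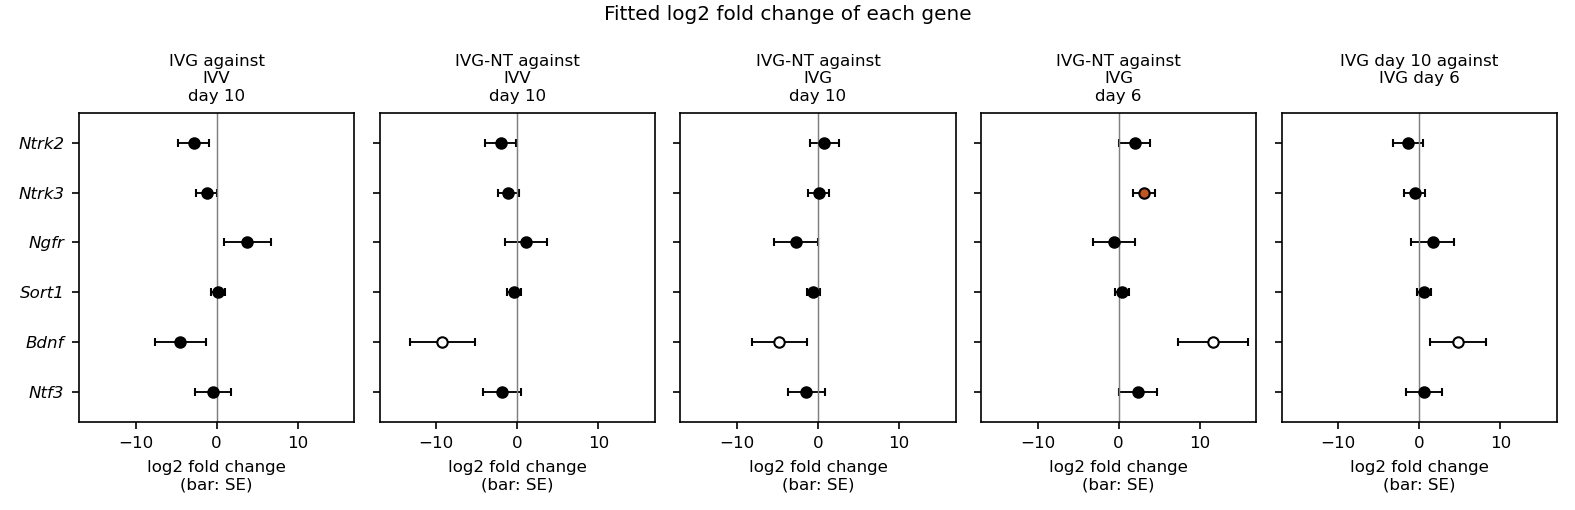
Fitted log2 fold change and SE of the 6 genes in the 5 comparisons from the fit of all 15 libraries, the orange point being the called gene with counts in both groups and open points marking Bdnf where 1 group had 0 counts in all libraries and the fitted size depends on the prior count. Sort1 has the smallest error in each panel (0.84), and Ntrk3 on day 6 (3.13) is the orange point.

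Other genes of the family place these values. Ntf5, which encodes NT-4 itself, had 31, 0 and 107 counts in IVV replicates 2, 3 and 4. On day 10 it had 4, 9 and 84 counts in IVG and 7, 8 and 57 in IVG-NT. On day 6 it was at 101 and 80 counts in replicate 3 of IVG and IVG-NT and at 0 in the rest. It therefore reached 10 counts in all 6 rRNA-poor libraries and in 0 of the 9 rRNA-rich ones, which 1.22% of all genes did. Its log2 fold change in IVG-NT against IVG was 0.01 (SE 2.29) on day 10 and -0.11 (SE 2.30) on day 6.

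Among the relatives of sortilin, Sorl1 and Sorcs2 were detected in 15 of 15 libraries with a mean of 4.45 and 3.8 FPKM, and Sorcs3 in 13. Sorcs2 had 18.6 to 19.9 CPM in IVV and 28 to 35.5 in IVG day 10, groups that did not overlap (exact permutation p = 0.1, with 5.35% of all genes above in that way), with a log2 fold change of 0.68 (SE 0.77, edgeR adjusted p = 1). In IVG-NT day 10 it had 21.8 to 44.3 CPM, again above IVV, as were 4.57% of all genes (log2 fold change 0.88, SE 0.77, edgeR adjusted p = 1). Sorcs1 had 28, 168 and 0 counts in IVV, 98 in IVG-NT day 6 replicate 1 alone, and 0 in every library of IVG-NT day 10 and IVG day 6. Unlike Bdnf, it was seen in all 3 libraries of IVG day 10, with 16, 29 and 16 counts, so that IVG-NT day 10 lay below IVG, as 1.93% of all genes did. It was not called there (at least 15.8-fold lower, edgeR adjusted p = 1), but it was with replicate number as a block, with library kind in the model, with no filter on low counts, with only those groups fitted and by DESeq2. DESeq2 called Nradd there as well. Sorcs1 was called in IVG-NT against IVV (at least 61.2-fold lower, edgeR adjusted p = 1) and in IVG-NT against IVG on day 6 (at least 51.9-fold higher, adjusted p = 0.381). Neither call of Sorcs1 held without its highest library. Nradd, a homologue of the p75 gene, reached 10 counts in 4 libraries.

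Adaptors and effectors of TRK receptors were read as a list. Of 30 listed genes, 29 passed the filter and 9 reached 10 counts in all libraries, beside 26.4% of all genes that passed it. Crk (20.8 FPKM on average), Crkl (16.3) and Gab2 (15.1) were the highest. In IVG against IVV, 2 of 29 were called, both higher, which is 6.9% of the list beside 2.76% of all genes (median of the list 0.45, of all genes -0.20). Gab2, a docking protein for the phosphatase SHP2 and PI3-kinase, had 7563, 10198 and 2349 counts in IVG and 1178, 1217 and 1349 in IVV (log2 fold change 1.95, SE 0.88, edgeR adjusted p = 1). Shc1, the adaptor that links TRK receptors to RAS, had 1416, 2231 and 583 counts in IVG and 197, 112 and 413 in IVV (2.38, SE 1.12, edgeR adjusted p = 1). In both genes the rRNA-poor library, replicate 3, was the lowest of IVG. Shc1 was also called in IVG-NT against IVV, 1 of 29 beside 3.29% of all genes (2.39, SE 1.12, edgeR adjusted p = 1), the list median being 0.43 and that of all genes -0.19. In fits that each left out 1 of the 6 libraries, Shc1 stayed called in 1 of 6 in either comparison and Gab2 in 2 of 6, and under DESeq2 size factors or a replicate block neither was. With library kind in the model or with no filter on low counts, Gab2 stayed called, whereas Shc1 was not called in either comparison.

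With NT-4 on day 10, 0 of these 29 genes were called against IVG, beside 1.24% of all genes (list median -0.18, all genes 0.01). On day 6, 1 was called higher and 3 lower, which is 13.8% of the list, near the 11.6% of all genes (list median -0.81, all genes -0.27). The count was 2 to 9 with a library left out, the highest without IVG-NT replicate 3, and 7 in the rRNA-rich libraries alone. Crk had 105, 37 and 3149 counts in IVG-NT and 3657, 3329 and 5854 in IVG (log2 fold change -2.34, SE 0.81, edgeR adjusted p = 0.381). It stayed called in 6 of 6 fits without a library, and with both shallow libraries left out it was no longer called. Sos2, a RAS exchange factor, was at -3.12 (SE 1.31, edgeR adjusted p = 0.395), Shc4 at -3.87 (SE 1.60, adjusted p = 0.393) and Sh2b3 at 4.53 (SE 1.70, adjusted p = 0.381). Sh2b3 had 0, 4941 and 1101 counts in IVG-NT and 581, 142 and 662 in IVG, and it was not called without IVG-NT replicate 2. None of these 3 stayed called without both shallow libraries or with a replicate block. From day 6 to day 10 in IVG, Gab1 (4.41, SE 1.99) and Matk (5.22, SE 2.36) were called higher, both with an edgeR adjusted p = 1, beside 2.9% of all genes (list median 0.28, all genes 0.05). They stayed called in 2 and 1 of 6 fits without a library, and with replicate number as a block 1 gene of the list was called there.

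Genes that act with or below p75 were read in the same way. All 22 passed the filter and 10 reached 10 counts in all libraries, beside 26.4% of all genes that passed it. Ywhae (94 FPKM on average) and Arhgdia (57.8) were among the highest. In each of the 5 comparisons 0 of 22 were called by edgeR, with list medians of 0.09, 0.28, -0.01, -0.52 and 0.32 in the order given above. The shares of all genes called were 2.76%, 3.29%, 1.24%, 11.6% and 2.9%, and the medians of all genes were -0.20, -0.19, 0.01, -0.27 and 0.05. On day 6 this count was 0 to 7 with a library left out, the highest without IVG-NT replicate 3, and 6 in the rRNA-rich libraries alone. In IVG against IVV it was 4 when only those groups were fitted.

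The listed proteases, linked to the cutting of the precursors directly or through plasminogen, were led by Plat. It encodes tissue plasminogen activator and had 121 FPKM on average, followed by Furin (16.7) and Pcsk6 (2.21). Of 11 listed, 9 passed the filter, 3 reached 10 counts in all libraries and 1 did so in no library. Plat had 54489, 77468 and 30947 counts in IVG day 10 and 11944, 8287 and 35068 in IVG day 6 and was called higher on day 10 (log2 fold change 1.48, SE 0.60, edgeR adjusted p = 1). Scaled to library size, all libraries of IVG day 10 lay above those of IVG day 6, as they did for 4.47% of all genes. Plat stayed called in 2 of 6 fits without a library. Mmp9 was called higher there too, with 13, 17 and 34 counts against 0 in all IVG day 6 libraries (at least 18-fold), a call kept in 0 of 6 fits without a library and lost by DESeq2 and with a replicate block. It was also called in IVG-NT against IVG on day 6, where all 178 counts were in 1 library. Pcsk2 was called lower in IVG than in IVV, with 0 counts against 25 over the group (at least 10-fold; kept in 1 of 6 fits without a library), and higher in IVG-NT than in IVG on day 10, where all 72 counts were in replicate 1 (kept in 2 of 6). Both genes had an edgeR adjusted p = 1 except for Mmp9 on day 6 (adjusted p = 0.381), and with replicate number as a block 0 proteases were called with NT-4 on day 10 and 1 between the days. In IVG-NT against IVV 0 of the 9 were called, also without the limit on size. Between the days 2 of 9 were called beside 2.9% of all genes, and 1 of 9 in IVG against IVV (2.76%), with NT-4 on day 10 (1.24%) and on day 6 (11.6%). The medians of this list were -0.27, -0.55, -0.58, 1.03 and 0.58 in the order of comparisons given above.

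The genes most like each of the 6 over the 15 libraries were named by Pearson correlation of log2 CPM among 15509 protein-coding genes, as a description. They were Oplah (0.912), Fam78a and Tro for Ntrk2, Atm (0.933), Nedd1 and Gm19402 for Ntrk3, and Mpp3 (0.929), Ptk2b and Recql4 for Sort1. For Bdnf they were Glt8d2 (0.972), C1s1 and Vmn2r17, each detected in 3 libraries, for Ntf3 Gm28042 (0.881), Cracr2a and C4b, and for Ngfr Stx12 (0.821), F5 and Sdr16c6. The points share libraries and their depth. Oplah had 68.8% and Glt8d2 93.8% of its summed CPM in a single library, whereas Stx12 had 9.85%, Nedd1 23.4% and Atm 33.4% in theirs. By Spearman correlation, only Nedd1 and Glt8d2 remained among the 3 nearest genes of their partner.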

How the data were processed

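The authors discarded reads with adaptors or quality scores under 20, used HISAT2 for alignment to mm10 and StringTie for quantification; their processing notes also name FastQC and edgeR. The deposited values are whole-number counts per Ensembl gene for each of the 15 libraries, not normalized. The program that gave these counts, its strand setting and its annotation release are not given in the sources used here. Of 55401 identifiers, 99.5% had a symbol in GENCODE vM21, and exon lengths, positions and transcript sequences came from its GRCm38 files.

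Groups and replicate numbers were taken from the titles. The IVV titles are numbered 2, 3 and 4 while their files carry the numbers 1, 2 and 3, so a replicate block matched IVV to cultured libraries by the title numbers 2 and 3 only. Libraries were fitted together with edgeR 4.0.16 (R 4.3.3; filterByExpr with a minimum count of 10, leaving 21009 genes; TMM; quasi-likelihood F test), as a model of group means, and P-values were adjusted by Benjamini-Hochberg over all genes. Normalized CPM used TMM library sizes; FPKM used all counts of a library and the union of exons. Single genes were also compared by exact permutation tests (two-sided) on log2(CPM + 0.5) with SciPy. DESeq2 1.42.0 served as an alternative. Scripts were tested on simulated data. Adaptors, proteases and markers were read as lists; all genes called in a list, up to 4 per comparison, and its 3 highest by FPKM were named, except that some genes are not reported here. The members and lists were chosen with earlier results of these data known. Same-numbered libraries deviated together in IVG and IVG-NT of day 10 (r = 0.370, 0.413 and 0.732) and in IVG of day 10 and day 6 (0.230, 0.147 and 0.538). In IVG-NT and IVG of day 6 r was 0.0833, 0.107 and 0.328. For replicates 2 and 3, r with IVV was -0.278 and -0.488 in IVG and -0.329 and -0.522 in IVG-NT of day 10. Replicate 3 was rRNA-poor in every cultured group and rRNA-rich in IVV, so pairing by number cannot be told apart from library kind. The main fit held no block, and the replicate block was run as an alternative only. Counts without molecular identifiers carry more error than counting alone. A table of the whole series that repeats these counts was not used here.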

Additional observations from a re-analysis of the deposited data

Results flagged for a closer look

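The difference of differences, day 10 minus day 6, had an edgeR P under 0.05 before adjustment for Bdnf alone of the 6 genes. Of the 6 other family genes that passed the filter, it did so for Sorcs1 alone. Over all genes 6.37% were called in either direction and 4.28% lower, and 0 of 21009 passed 0.05 after adjustment. For Bdnf the difference of differences was -16.39 on the log2 scale (SE 5.51, edgeR adjusted p = 0.664). For Sorcs1 it was -17.82 (SE 5.11, edgeR adjusted p = 0.664). Both sizes depend on the prior count, since each gene had 0 counts in all libraries of IVG-NT day 10 and of IVG day 6. All counts in IVG-NT day 6 were in replicate 1, 180 for Bdnf and 98 for Sorcs1, and on day 10 IVG had 12 counts of Bdnf in 1 library and 16, 29 and 16 of Sorcs1. Without IVG-NT day 6 replicate 1 the difference could not be estimated for either gene, and without IVG day 10 replicate 2 it could not be for Bdnf.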

How the results depend on the processing

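Called genes were few and depended on single libraries. In IVG-NT against IVV the count of 1 became 0 under the DESeq2 Wald test, which gave no P for Bdnf, and in rRNA-rich libraries only, and it was 0 to 1 with each library left out, the 0 coming without IVV replicate 3 or any 1 of the IVG-NT libraries. In IVG-NT against IVG on day 6 the count of 2 became 1 under DESeq2, with library kind (rRNA-rich or rRNA-poor) in the model or with the groups compared alone, and 0 with a replicate block or with both shallow libraries left out, an alternative chosen after seeing the data. With each library left out it was 0 to 2, but not always the same genes: without IVG-NT replicate 1, Ntrk2 was called lower (-4.66) beside Ntrk3. The other 3 comparisons stayed at 0 of 6 under every alternative run, and the difference of differences gave 0 to 2 with a library left out, Ntrk2 (5.45) being called in place of Bdnf without IVG-NT day 6 replicate 1. In the comparisons between groups the replicate block changed no other call of the 6. The difference of differences was not fitted with that block. At 1 FPKM in place of 10 counts, 1, 1, 1, 1 and 0 of the 6 were detected in IVV, IVG day 10, IVG-NT day 10, IVG day 6 and IVG-NT day 6, and at 10 counts with a library left out 4 to 5, 3 to 4, 3 to 3, 3 to 3 and 2 to 3.

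Signs turned as follows; the cause was not tested. Sort1 in IVG against IVV was -0.02 under DESeq2 and under its size factors, -0.5 in rRNA-rich libraries and -0.12 with the block. Ntf3 in IVG-NT against IVG on day 10 was 0.25 in rRNA-rich libraries and 0.11 with the block. On day 6 with both shallow libraries left out, Ntrk2 was -3.95, Ntrk3 -1.34, Ngfr 0.84 and Ntf3 -7.02. With each library left out, values in IVG against IVV spanned -3.38 to 0.19 for Ntrk2, -1.7 to 1.13 for Ntrk3, -0.11 to 0.7 for Sort1 and -2.18 to 0.13 for Ntf3. In IVG-NT against IVV they spanned -2.59 to 0.99 for Ntrk2, -1.59 to 1.23 for Ntrk3, -4.01 to 5.03 for Ngfr and -0.67 to 0.13 for Sort1. In IVG-NT against IVG on day 10 they spanned -0.13 to 0.29 for Ntrk3 and -2.03 to 0.29 for Ntf3. On day 6 they spanned -4.66 to 2.86 for Ntrk2, -6.07 to 5.52 for Ngfr, -0.56 to 0.89 for Sort1 and -6.92 to 3.76 for Ntf3. From day 6 to day 10 they spanned -0.94 to 0.19 for Ntrk3 and -1.2 to 1.92 for Ntf3. The difference of differences spanned -2.07 to 5.45 for Ntrk2, -8.24 to 3.34 for Ngfr and -5.2 to 5.47 for Ntf3. DESeq2 size factors moved the median of all genes from -0.20 to -0.39 in IVG against IVV, from -0.19 to -0.36 in IVG-NT against IVV and from -0.27 to 0.00 on day 6, where calls were 1416 higher and 1014 lower with TMM and 1867 and 679 with size factors. With no filter on low counts, 881 genes passed 0.05 after adjustment on day 6, and without IVG-NT day 6 replicate 3 there were 2581, with 1456 in the difference of differences. Leaving out that replicate kept only the shallow rRNA-rich libraries of its group, so NT-4, depth and library kind cannot be told apart there. Depth limits what a count of 0 says in the shallow libraries, where it allows up to 0.542 CPM in IVG-NT day 6 replicate 1 and 0.522 in replicate 2.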
